A study of Mus musculus with 24 samples.

Results

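The cytosolic ribosomal protein genes were followed in inguinal fat, a subcutaneous white depot of the groin, taken from mice on a high-fat diet. Members were taken by name: every gene called Rpl or Rps followed by a digit, with Rplp0, Rplp1, Rplp2 and Rpsa, and without pseudogenes marked -ps and the Rps6k kinases. This gave 85 genes of the 17541 in the deposited table, 51 with a large-subunit name and 34 with a small-subunit name. The rule also took in 8 genes beside the core set: the paralogs Rpl3l, Rpl7l1, Rpl22l1, Rpl36al, Rpl39l, Rps27l and Rps27rt, and Rps19bp1, whose product binds Rps19. All 85 passed the filter on low counts, by which 15939 genes were kept for testing.

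RNA was measured in 24 wild-type C57BL/6J mice in 4 groups. Aged BAM15 held 5 mice of 92 weeks given BAM15, and Aged CTRL held 6 mice of 92 weeks without it. Young BAM15 held 6 mice of 16 weeks given BAM15, and Young CTRL held 7 mice of 16 weeks without it. BAM15 is a small molecule that uncouples mitochondrial respiration from ATP synthesis, at a dose the labels do not give. Libraries were made with QuantSeq, which counts about 1 tag per transcript from its 3′ end, so levels are not scaled by transcript length.

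A cytosolic ribosome holds 1 copy of nearly every ribosomal protein, on a small subunit that reads the mRNA and a large subunit that joins amino acids. Most of the mRNAs of these proteins begin with a C and an unbroken run of pyrimidines, the 5′ terminal oligopyrimidine (TOP) tract. Through it their translation is switched on together by the growth and nutrient kinase complex mTORC1 and held back by Larp1 when that complex is inactive. Several of them serve as reference genes in quantitative PCR on fat, among them Rplp0, Rps18, Rpl32 and Rpl13a. The inguinal depot of the mouse encloses a lymph node, so a piece of it can carry lymphocytes.

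Start sites are printed here to show the TOP tract, for core genes that have it at an annotated start and for some paralogs. For a gene with several annotated starts, one with the tract was taken where present. They come from the RefSeq promoter table of build GRCm38.p6, which held 65 of the 85 genes. Each line runs from 10 bases before the annotated start to the 20th base of the transcript, 5′ to 3′ on the strand of the gene, with the C and the pyrimidines that follow it without a break in capitals. The windows are chr4:86857348-86857377 (minus strand) for Rps6, chr17:33955646-33955675 (minus) for Rps18, chr7:4792955-4792984 (plus) for Rpl28, chr11:114668570-114668599 (plus) for Rpl38, chr3:90213629-90213658 (minus) for Rps27, chr9:114982720-114982749 (minus) for Rps27rt, chr9:66946076-66946105 (plus) for Rps27l and chr17:24727816-24727845 (plus) for Rpl3l.
Rps6: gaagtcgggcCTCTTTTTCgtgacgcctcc
Rps18: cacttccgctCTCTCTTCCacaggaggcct
Rpl28: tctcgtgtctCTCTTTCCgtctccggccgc
Rpl38: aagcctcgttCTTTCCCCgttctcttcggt
Rps27: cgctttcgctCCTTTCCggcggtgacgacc
Rps27rt: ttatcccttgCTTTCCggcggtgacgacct
Rps27l: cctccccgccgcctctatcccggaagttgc
Rpl3l: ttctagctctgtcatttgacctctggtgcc
The annotated starts of Rps6, Rps18, Rpl28, Rpl38 and Rps27 opened with 7 to 9 bases of the tract. Rps27rt, a copy of Rps27, opened with 6 of its 7 bases, while Rps27l and Rpl3l showed no tract at the start printed here. A C followed by at least 4 pyrimidines stood at an annotated start of 14 of the 65 members (21.5%), against 813 of the 27025 genes in the table (3.01%). The core genes printed above are all among the 14. Other core genes, such as Rplp0, Rps12, Rps3 and Rpl4, had no tract at an annotated start either, so the lines printed do not set core genes apart from paralogs. An annotated start a few bases off hides the tract, so these shares are those of the annotation. Within the 300-base promoter windows, on either strand, CCGGAAG (the core of many ETS-family sites) was in 26 of 65 members (40.0%) and 9.93% of all genes. AAGATGGC (a YY1 core) was in 9.23% and 3.19%, GGGCGG (an Sp1 core) in 61.5% and 38.2%, and TATAAA in 10.8% and 15.7%. The CCGGAAG of Rps27l can be read in its line above. These matches are descriptions of letters, and none was tied to a measured factor.

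Library totals ran from 8.62 to 21.9 M counts, and the 10 adipocyte markers, such as Adipoq and Plin1, were above 0 in every library. In 4 libraries, Aged BAM15 2, Aged BAM15 5, Aged CTRL 2 and Young CTRL 4, the mitochondrial ribosomal RNA mt-Rnr2 had 0.257% of counts or less, and each of the 20 other libraries had 0.722% or more. These 4 also differed in the ribosomal protein genes, as described next, so results are given with and without them. B cell markers, which fat cells lack, varied between libraries from 4.63 to 2020 CPM (counts scaled to library size) in sum over 12 genes. Of the 12, 9 were at 0 in some library.

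By mean CPM over all libraries the most abundant members were Rps12 (1361), Rplp1 (1302), Rps21 (1105), Rps20 (1022) and Rps29 (974), and the least abundant were Rpl39l (11.4), Rps27rt (7.59) and Rpl24 (3.67). How tags that match several copies of a gene were counted is not given, so this order between genes is one of tags and not of transcripts. Together the 85 genes held 1.80 to 6.07% of the counts of a library. In the 20 libraries with the higher mt-Rnr2, Rplp1, an acidic protein of the large-subunit stalk, was the most abundant member in every one, with 4.24 to 5.16% of all member counts. The 5 most abundant members of such a library held 17.0 to 20.0% of member counts. In the 4 libraries with low mt-Rnr2 the most abundant member was Rps12, a small-subunit protein, with 6.91 to 11.2% of member counts, and the top 5 held 28.2 to 35.8%. The counts of these 4 libraries were thus held by fewer members, although their summed share, 2.97 to 3.37%, lay inside the range of the other 20.

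The 4 libraries differed from the other 20 gene by gene and in both directions. Of the 85 members, 19 lay wholly below the other 20 libraries and 3 wholly above, where 8.76% and 6.91% of the 15939 genes did so. Genes in this paragraph were picked after their values were seen. Rps14 had 19.8 to 138 CPM in the 4 libraries and 647 to 1650 CPM in the 20 others, a difference of the medians of -5.19 on the log2 scale. Rps16, of the small subunit, had 4.90 to 19.4 CPM against 94.9 to 324 CPM, and Rpl28, of the large subunit, 5.78 to 36.5 CPM against 96.4 to 229 CPM. Both reference genes Rplp0 (20.0 to 121 against 234 to 666 CPM) and Rps18 (19.3 to 130 against 148 to 518 CPM) were among the 19. The 3 above were Rps12 (2353 to 4550 against 563 to 1609 CPM), Rpl11 (1419 to 2323 against 431 to 1024 CPM) and Rpl31 (928 to 1292 against 254 to 667 CPM). Rps3, Rps20, Rpl4 and Rpl13 had medians 2.82 to 4.90 times as high in the 4 libraries, with ranges that overlapped those of the 20. Rps6, Rpl10a and Rpl29 had 0 counts in Aged CTRL 2, which allows a level of up to 0.141 CPM (3 counts in that library; counting error only). Total counts were 18.4 to 21.9 M in the 4 libraries and 8.62 to 17.9 M in the 20 others. Mitochondrial genes held 11.99 to 21.35% of counts in the 4 libraries and 4.82 to 9.27% in the 20 others. Why these libraries differ is not in the labels and was not tested.

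**Figure D1:**
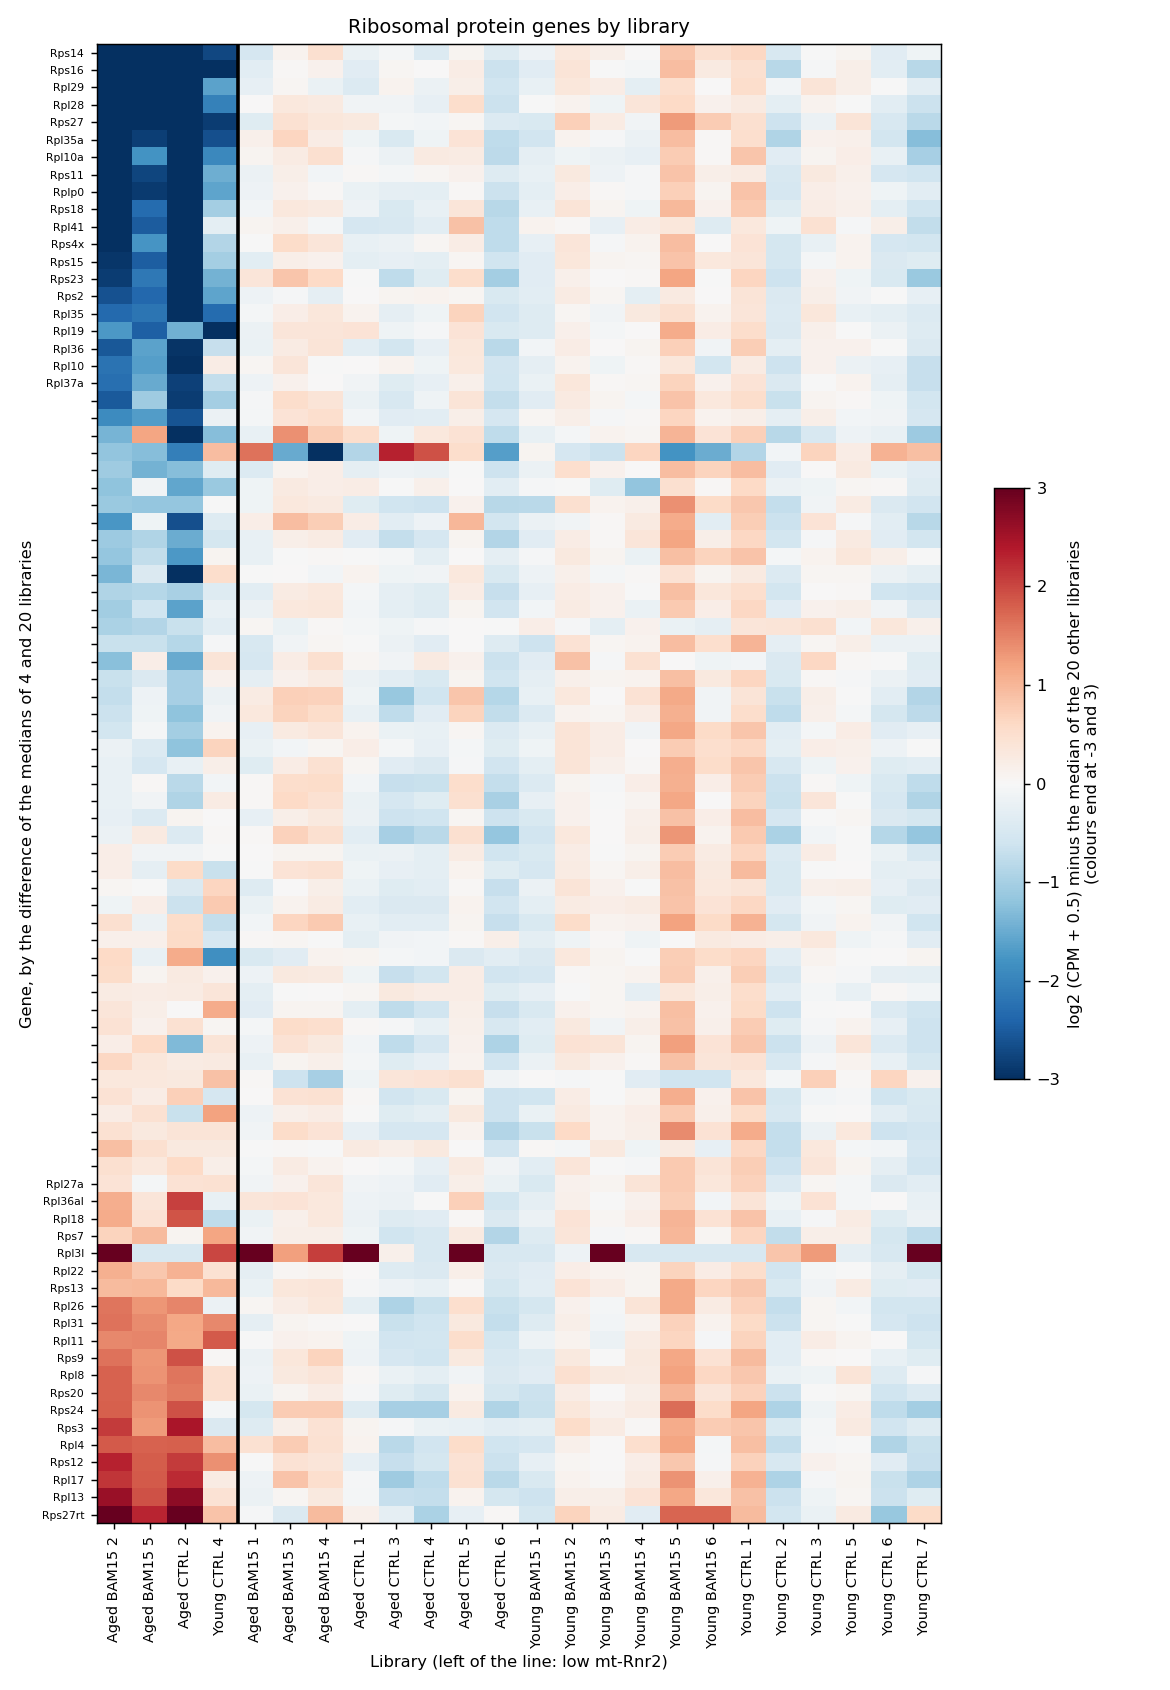
Level of each of the 85 genes (down the page) in each library (across), as log2 (CPM + 0.5) minus the median of that gene over the 20 libraries right of the line, with names for the 20 genes at either end. The 4 libraries left of the line, with low mt-Rnr2, hold a block of low genes at the top (Rps14 to Rps2) and of high genes at the bottom (Rps12, Rpl13), while in the 20 others most genes shift together, upward in Young BAM15 5 and Young CTRL 1.

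Among the 20 other libraries the members moved as a block. The median SD of a member over these libraries was 0.42 on the log2 CPM scale, and it fell to 0.21 once the median of the members in each library was subtracted. The SD became smaller for 75 of 85 members (88.2%), against 24.1% of all genes kept, whose median SD was 0.53 before and 0.67 after. The median subtracted is that of the members themselves, which favours a smaller SD for them, so these shares are not a like comparison. Members named here were picked by this SD. The closest followers of the block were Rplp1 (SD 0.08 after subtraction), Rpl37 (0.10) and Rps21 (0.10). The loosest were Rpl3l (3.74), Rpl39l (1.75), Rps27l (0.69), Rps27rt (0.69) and Rps19bp1 (0.49), all among the 8 genes beside the core set. A low level adds counting error to the SD of Rpl3l, Rpl39l and Rps27rt. Over all 24 libraries the median SD was 0.62 before and 0.56 after.

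The first comparison, of Aged BAM15 with Aged CTRL, concerns the compound in old mice. In the aged mice no member passed the test for BAM15, edgeR's quasi-likelihood test with Benjamini-Hochberg adjustment over all genes: 0 of 85 were called, and 0.0% of all 15939 genes. At an unadjusted p under 0.05 there was 1 member, against 9.1% of all genes. That count rested on single libraries and on the test: it was 21 members (24.7%, against 19.3% of all genes) without Aged CTRL 2, 8 members (9.41%, against 7.68%) without Aged CTRL 5, and 41 members (48.2%, against 22.7%) by limma-voom. The members held 2.71, 3.22, 3.94, 3.86 and 2.97% of counts in Aged BAM15 1 to 5, with a mean of 3.34 ± 0.544% (SD, n = 5). In Aged CTRL they held 1.95 to 3.37% with a median of 2.62% and a mean of 2.65 ± 0.505% (SD, n = 6). The groups overlapped: 2 Aged BAM15 libraries exceeded every Aged CTRL library and 3 lay within their range. In bulk tissue, fewer cells of a type and less RNA per cell cannot be told apart. The log2 change was positive for 58 of 85 members with a median of 0.21, against a median of 0.02 and 51.7% positive over all genes. Without the 4 libraries with low mt-Rnr2 it was positive for 78 members with a median of 0.32, and 0 were called (0.0% of 16553 genes). With 1 library left out the median ran from 0.12 (without Aged BAM15 4) to 0.32 (without Aged CTRL 5). B cell marker genes had a median log2 change of 1.33 in this comparison and 3.08 without the low mt-Rnr2 libraries, and their values are set beside those of the members further on.

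Rpl4, a large-subunit protein of the peptide exit tunnel, had 723, 1883, 887, 719 and 1792 CPM in Aged BAM15 1 to 5. In Aged CTRL it had 300 to 1803 CPM with a median of 457 CPM, and the highest values of both groups were those of low mt-Rnr2 libraries. Its log2 change was 0.80 ± 0.46 SE (adjusted p = 0.622, edgeR). Rpsa, the small-subunit protein also known as the laminin receptor, had 204, 301, 339, 371 and 190 CPM in Aged BAM15 1 to 5, against 133 to 317 CPM in Aged CTRL. For Rpsa the log2 change was 0.49 ± 0.32 over all libraries and 0.78 ± 0.34 without the low mt-Rnr2 libraries (adjusted p = 0.406, edgeR). The groups overlapped for both genes.

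None of the other members with large fitted differences in the aged mice was called. Rps12 had a log2 change of 0.78 ± 0.50 and Rps6, the ribosomal substrate of the S6 kinases, 0.77 ± 0.67. The highest Rps12 values of both groups were those of low mt-Rnr2 libraries: 4550 and 3188 CPM in Aged BAM15 2 and 5, and 3936 CPM in Aged CTRL 2. Rps6 had 10.3, 4.27, 32.0, 20.7 and 28.1 CPM in Aged BAM15 1 to 5 and at most 17.6 CPM in Aged CTRL, so that 3 of 5 Aged BAM15 libraries exceeded every Aged CTRL library. Of these 3, Aged BAM15 5 was a low mt-Rnr2 library, as were Aged BAM15 2 (4.27 CPM) and Aged CTRL 2 (0 counts of Rps6). Rpl39l (-1.12 ± 0.82), Rps2 (-0.45 ± 0.46), Rpl3l (-0.44 ± 2.29) and Rps16 (-0.39 ± 0.75) had the most negative values. With the low mt-Rnr2 libraries left out, Rps2 and Rps16 were at -0.12 ± 0.20 and 0.06 ± 0.30.

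The count of calls in the aged mice depended on the test. DESeq2 called 0 members and 0.646% of all genes. Limma-voom with sample quality weights called 11 members, 10 higher and 1 lower, and 6.06% of all genes. The 10 had log2 changes of 0.79 to 1.31 and included Rpl4, Rpl13a, Rpl17, Rpl21, Rpl23, Rpl36a, Rps9, Rps24 and Rpsa, and the 1 lower was Rps27l (-0.82, adjusted p = 0.0196, limma). Those not named elsewhere were picked after their values were seen.

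Aged CTRL was set against Young CTRL for the effect of age without the compound. No member passed the test for age: 0 of 85 were called by edgeR, against 0.207% of all genes (33 of 15939), and 1 member had an unadjusted p under 0.05, against 8.43% of all genes. With 1 library left out that count was 0 to 6 members. It was 0 without Aged CTRL 2, against 7.65% of all genes, and 6 (7.06%) without Aged CTRL 5, against 9.24%. DESeq2 also called 0 members (1.12% of all genes), as did limma-voom (0.91%). The members held 1.95 to 3.37% of counts in Aged CTRL (median 2.62%, mean 2.65 ± 0.505%, SD, n = 6) and 1.80 to 4.95% in Young CTRL (median 2.63%, mean 2.84 ± 1.07%, SD, n = 7). The groups overlapped over the whole range of Aged CTRL. The median log2 change was -0.15, with 25 of 85 positive, against -0.04 and 46.5% positive over all genes. Without the low mt-Rnr2 libraries it was -0.17, with 15 positive and 0 called (0.477% of all genes). The median was 0.00 without Young CTRL 1 and -0.30 without Aged CTRL 5, and that of the B cell marker genes was -1.06 with all libraries and -2.79 without the low mt-Rnr2 libraries.

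Rpl7, of the large subunit and named after its values were seen, had the smallest p with age. It had 277 to 469 CPM in Aged CTRL (median 321 CPM) and 338 to 752 CPM in Young CTRL (median 420 CPM), with overlapping groups. The fitted log2 change of Rpl7 was -0.49 ± 0.22 (adjusted p = 0.542, edgeR). Among the largest negative values were those of Rpl3l (-0.61 ± 2.10), Rpl27 (-0.53 ± 0.26) and Rps15a (-0.50 ± 0.33). Rpl27 had 85.7 to 284 CPM in Aged CTRL and 270 to 509 CPM in Young CTRL.

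The largest positive values with age turned to the other side without the low mt-Rnr2 libraries. Rps27rt was at -0.40 ± 0.50 without them and 1.21 ± 0.75 with them. Rps3, which lies at the mRNA entry and also acts in DNA repair, was at -0.15 ± 0.26 without them and 0.77 ± 0.45 with them. Rpl13 was at -0.29 ± 0.29 without them and 0.75 ± 0.53 with them, and Rpl36al at -0.05 ± 0.21 and 0.59 ± 0.32. Rps3 had 2115 CPM in Aged CTRL 2 and 310 to 411 CPM in the other Aged CTRL libraries, against 257 to 688 CPM in Young CTRL.

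Young BAM15 was set against Young CTRL for the effect of the compound in young fat. No member passed the test: 0 of 85 were called by edgeR, as were 0.0% of all genes, and 0 members were called by DESeq2 (1.02% of all genes) or limma-voom (3.96%). One unadjusted p of a member, that of Rps27l, was under 0.05, against 13.1% of all genes. Without Young CTRL 1 there were 13 (15.3%, against 14.9% of all genes), and by limma-voom 44 (51.8%, against 25.3%). The members held 2.37 to 6.07% of counts in Young BAM15 (median 3.47%, mean 3.67 ± 1.30%, SD, n = 6) and 1.80 to 4.95% in Young CTRL (median 2.63%, mean 2.84 ± 1.07%, SD, n = 7). The groups overlapped, and 1 Young BAM15 library, number 5, exceeded all of Young CTRL. The log2 change was positive for 75 of 85 members, with a median of 0.28, against 0.03 and 52.7% positive over all genes. Without the low mt-Rnr2 libraries it was positive for 76, with a median of 0.27, and 0 were called (0.0% of all genes). The median was 0.09 without Young BAM15 5 and 0.43 without Young CTRL 1, and that of the B cell marker genes was 2.37 with all libraries and 2.15 without the low mt-Rnr2 libraries.

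**Figure D2:**
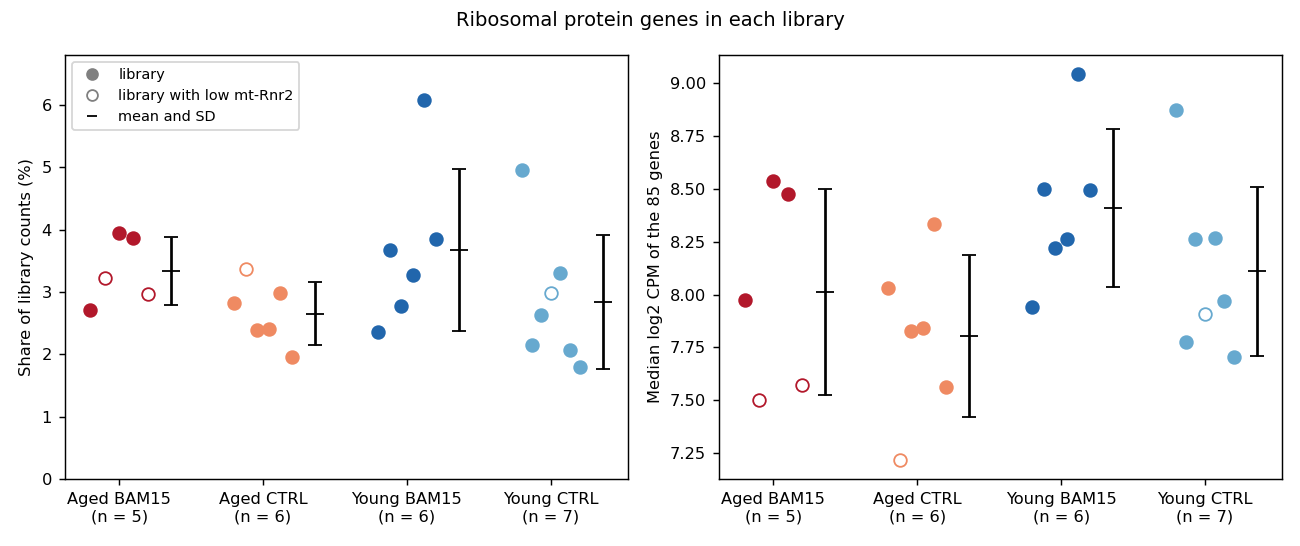
Share of library counts held by the 85 genes (left, percent) and their median log2 CPM (right), 1 point per library, with the mean and SD of each group beside the points. The 4 groups overlap in both panels, and the highest libraries are Young BAM15 5 at 6.07% and Young CTRL 1 at 4.95%.

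Rps27l, a paralog of Rps27 that is a known p53 target, had the smallest p among members in the young mice and went against the block. It had 86.4 to 131 CPM in Young BAM15 and 125 to 240 CPM in Young CTRL. Of the 6 Young BAM15 libraries, 3 lay below every Young CTRL library. Its log2 change was -0.66 ± 0.22 (adjusted p = 0.267, edgeR). In the aged mice it had 134, 164, 84.7, 65.2 and 164 CPM in Aged BAM15 1 to 5, against 119 to 182 CPM in Aged CTRL. The log2 change there was -0.33 ± 0.24 over all libraries and -0.69 ± 0.25 without the low mt-Rnr2 libraries (adjusted p = 0.345, edgeR).

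Rps27, a zinc-finger protein of the small subunit, had 312 to 1043 CPM in Young BAM15 (median 607.5 CPM) and 59.3 to 600 CPM in Young CTRL (median 307 CPM). Its log2 change was 0.83 ± 0.60 (adjusted p = 0.573, edgeR) and 0.62 ± 0.27 without the low mt-Rnr2 libraries (adjusted p = 0.221, edgeR). Rps27rt (0.66 ± 0.75), Rps6 (0.64 ± 0.61) and Rpl3l (0.63 ± 2.08) followed it. Rpl39l (-0.95 ± 0.75), Rpl11 (-0.36 ± 0.38) and Rps19bp1 (-0.28 ± 0.19) stood with Rps27l at the negative end. Rpl11, which with Rpl5 can bind Mdm2 and so restrain the breakdown of p53, was at 0.05 ± 0.22 without the low mt-Rnr2 libraries, and Rpl5 at 0.28 ± 0.28 with all libraries.

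**Figure D3:**
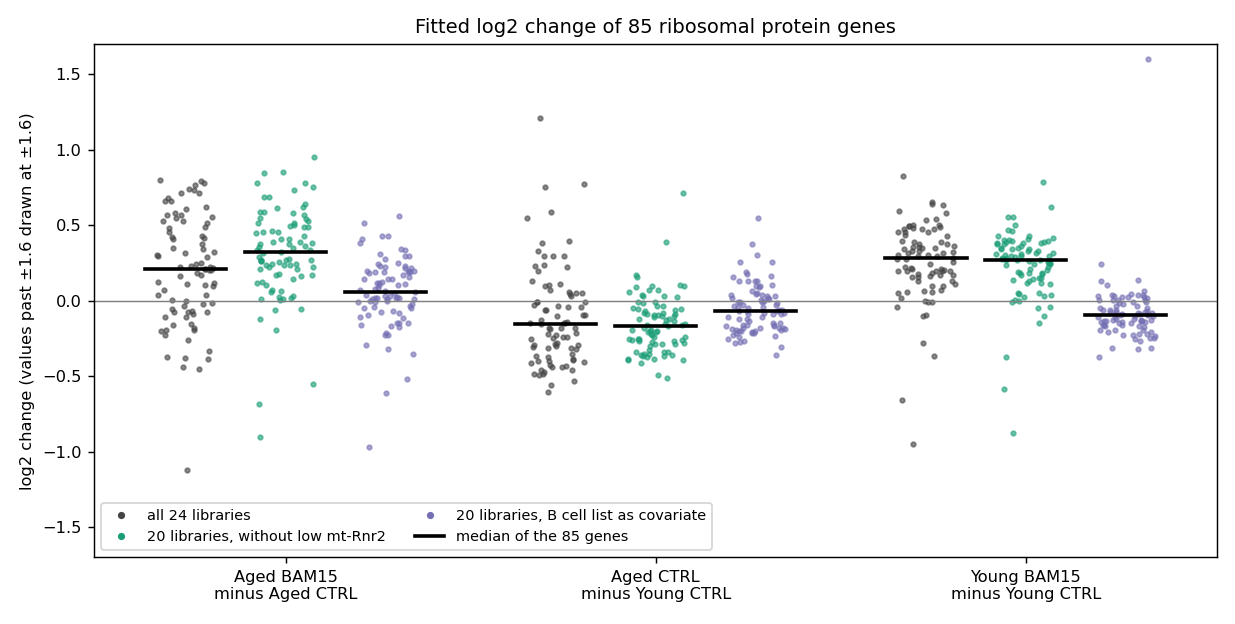
Fitted log2 change of each of the 85 genes (points) in 3 comparisons, from all 24 libraries, from the 20 without low mt-Rnr2, and from those 20 with the B cell list as a covariate; black lines are medians. With all libraries the medians are 0.21, -0.15 and 0.28 from left to right, and with the covariate in 20 libraries they are 0.06, -0.07 and -0.10.

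Members that serve as reference genes in quantitative PCR were not flat across libraries. Rplp0, of the large-subunit stalk, had 326, 44.3, 399, 377 and 49.3 CPM in Aged BAM15 1 to 5, and 20.0 to 377 CPM in Aged CTRL. It had 299.9 to 599 CPM in Young BAM15 and 121 to 666 CPM in Young CTRL. The low ends other than that of Young BAM15 were all in low mt-Rnr2 libraries, and the groups overlapped. Fitted log2 changes of Rplp0 were -0.11 ± 0.55 in Aged BAM15 against Aged CTRL, -0.46 ± 0.51 with age and 0.20 ± 0.51 in Young BAM15 against Young CTRL.

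Rps18, of the small-subunit head, followed the same course, with 249, 23.5, 329.5, 321 and 53.3 CPM in Aged BAM15 1 to 5 and 19.3 to 339.8 CPM in Aged CTRL. Rpl13a, known in human cells also for silencing inflammatory mRNAs outside the ribosome, had 605, 524, 963, 828 and 711 CPM in Aged BAM15 1 to 5 and 264 to 824 CPM in Aged CTRL (median 395 CPM). Its low mt-Rnr2 libraries did not stand below the others, and its log2 change was 0.71 ± 0.36 (adjusted p = 0.566, edgeR). Rpl32 varied less, with 312 to 517.5 CPM in Aged BAM15, 275 to 504 CPM in Aged CTRL, 323 to 939 CPM in Young BAM15 and 409.6 to 1005 CPM in Young CTRL. Its log2 change was -0.08 ± 0.27 in Aged BAM15 against Aged CTRL, -0.41 ± 0.25 with age and 0.16 ± 0.24 in Young BAM15 against Young CTRL.

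The effect of BAM15 was not shown to differ between the ages. In the interaction test of edgeR 0 of 85 members were called, as were 0.0% of all genes, and 0 members had an unadjusted p under 0.05, against 5.08% of all genes. Limma-voom and DESeq2 called 0 members there, and 0.0% and 0.0125% of all genes. The median difference was -0.03 and 41 of 85 were positive. The smallest p was that of Rpl11 (1.02 ± 0.56, adjusted p = 0.899, edgeR), which was at 0.21 ± 0.36 without the low mt-Rnr2 libraries. In the test of any difference among the 4 groups, edgeR called 0 members and 2.47% of all genes (0 members and 2.93% without the low mt-Rnr2 libraries), and 6 members had an unadjusted p under 0.05, against 19.9% of all genes. With 1 library left out that count was 1 to 13 members. It was 1 without Aged CTRL 6 or Young BAM15 5, against 18.8% and 15.1% of all genes. It was 13 (15.3%) without Aged CTRL 2 or Aged CTRL 5, against 26.1% and 18.9% of all genes. By limma-voom it was 50 (58.8%), against 34.8% of all genes. Limma-voom called 19 members in that test and 16.7% of all genes, and DESeq2 called 0 members and 8.61% of all genes. In no comparison did the groups of any member fail to overlap, whereas 0.709% of all genes had separate groups between Aged BAM15 and Aged CTRL, 0.489% between Aged CTRL and Young CTRL and 1.19% between Young BAM15 and Young CTRL. Without the low mt-Rnr2 libraries the members' groups still overlapped throughout, and these shares of all genes were 7.62%, 1.43% and 1.65%.

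Markers of B and T cells varied together with the block of members over the 20 libraries. The 12 B cell genes summed to 16.0, 207, 266, 503 and 4.63 CPM in Aged BAM15 1 to 5, against 13.2 to 291 CPM in Aged CTRL. They summed to 8.23 to 2020 CPM in Young BAM15 and 5.43 to 560 CPM in Young CTRL. None of the 12 was called with BAM15 or age, and their median log2 change was 1.33 in Aged BAM15 against Aged CTRL, -1.06 in Aged CTRL against Young CTRL and 2.37 in Young BAM15 against Young CTRL. Without the low mt-Rnr2 libraries these medians were 3.08, -2.79 and 2.15. The 10 T cell genes, of which 0 were called, had medians of 2.04, -1.17 and 1.90 in the same order, and 3.09, -2.21 and 1.66 without the low mt-Rnr2 libraries. The 10 macrophage genes, also with 0 called, had -0.42, 0.53 and -0.25. The library with the highest B cell sum, Young BAM15 5, had the highest member share, 6.07%. In Young CTRL, libraries 1 and 5 had 535 and 560 CPM of B cell genes with member shares of 4.95 and 3.30%, and the other 5 had at most 10.3 CPM with shares of 1.80 to 2.99%. Young BAM15 1, the only Young BAM15 library with a low B cell sum (8.23 CPM), had the lowest share of its group, 2.37%. The order was not kept throughout: Aged CTRL 5, with 14.0 CPM of B cell genes, had a share of 2.98%, above that of Aged CTRL 1 (2.83%), which had 74.9 CPM. The median log2 CPM of the members in Aged CTRL 5 (8.34) was also above that in Young CTRL 5 (8.27). By this median Young CTRL 3, with 5.43 CPM of B cell genes, was close to Young CTRL 5, at 8.26. In Young CTRL 1 the skin markers were high as well, at a mean log2 CPM of 7.70, and Young CTRL 7 had 5.81 with the lowest share, 1.80%.

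Each member was fitted with a slope on the B cell list (its mean log2 CPM) beside the group term in the 20 libraries, a result added after the data were seen. By edgeR 53 of 85 members rose with the list and 0 fell, against 8.78% and 4.82% of 16553 genes. The median slope was 0.10 log2 units per log2 unit of the list, and 0.00 over all genes. Among members named before, the slope was 0.17 ± 0.03 for Rps15a, 0.16 ± 0.03 for Rps27, 0.15 ± 0.03 for Rpsa, and 0.14 ± 0.02 for Rps3, all with an adjusted p of at most 0.00190 (edgeR). Rps24 (0.22 ± 0.04) and Rpl12 (0.18 ± 0.03), picked after their values were seen, were steeper. Of the 8 genes beside the core set Rps27rt rose (0.23 ± 0.06, adjusted p = 0.0218, edgeR). The other 7 were not called: Rpl36al (0.03), Rpl22l1 (0.05) and Rpl7l1 (0.01) had slopes near 0, and Rps27l (-0.08 ± 0.03, adjusted p = 0.0531, edgeR), Rps19bp1 (-0.04), Rpl39l (-0.33) and Rpl3l (-0.39) had negative ones. In the same fit of 20 libraries all 10 T cell genes rose with the list, and 4 of 10 adipocyte and 3 of 8 progenitor and fibroblast genes fell. The part of each cell type in the slopes of the members was not tested. In all 24 libraries 15 members rose and 0 fell, against 5.55% and 0.985% of genes.

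**Figure D4:**
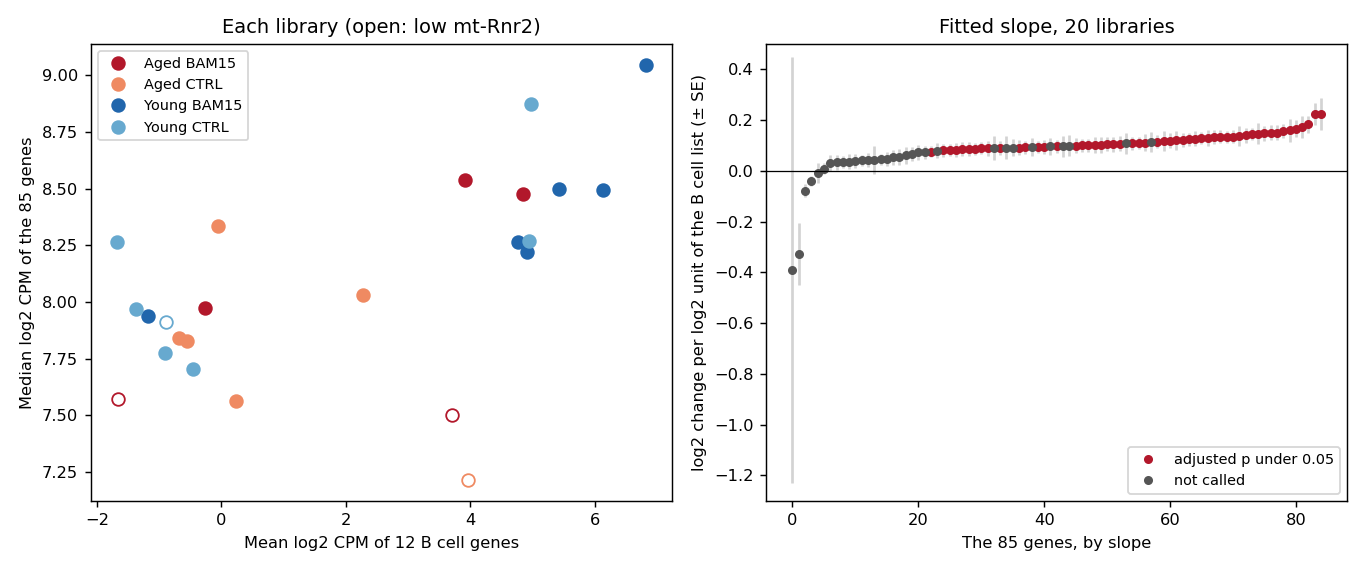
Left, median log2 CPM of the 85 genes against the mean log2 CPM of 12 B cell genes, 1 point per library, with low mt-Rnr2 libraries open; right, the fitted slope of each gene on that list in 20 libraries with its SE. The filled points climb from left to right, the open ones lie low, and 53 slopes are called, all positive.

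With the B cell list as a covariate the group medians of the members moved towards or past 0. In all 24 libraries the median log2 change was then 0.10 for Aged BAM15 against Aged CTRL, -0.13 for Aged CTRL against Young CTRL and -0.07 for Young BAM15 against Young CTRL, where 33 of 85 were positive. In the 20 libraries it was 0.06, -0.07 and -0.10, and 20 of 85 were positive in the last. In each of these fits 0 members were called. For Rps27l the value in young mice was then -0.31 ± 0.19 in the 20 libraries, and in aged mice -0.52 ± 0.22. The median of the B cell list itself differed between the groups, and the share of any group difference that goes with it was not tested beyond these fits.

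The paralogs showed patterns of their own. Rpl3l, which takes the place of Rpl3 in the ribosomes of skeletal and heart muscle, had 27.4, 15.8, 1.13, 2.43 and 0 CPM in Aged BAM15 1 to 5 and 0 to 61.6 CPM in Aged CTRL. It had 0 to 181 CPM in Young BAM15 and 0 to 131.5 CPM in Young CTRL. In 10 libraries it had 0 counts, which allows at most 0.321 CPM. Its highest libraries were Young BAM15 3 and Young CTRL 7, where 10 skeletal muscle genes summed to 60079 and 51044 CPM, then Aged CTRL 1 (24489 CPM) and Aged BAM15 1 (10586 CPM). In a fit with the muscle list as a covariate Rpl3l rose with the list by 1.22 ± 0.07 log2 units per log2 unit (adjusted p = 7.51e-12, edgeR). It was the only one of the 85 called, against 2.68% of all genes. Rpl3 itself had 166 to 464 CPM over the 24 libraries.

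Rps27 and Rps27rt could not be told apart with certainty. Their reference transcripts, of 345 and 374 bases, share an identical run of 341 bases. Rps27rt held 9.25 to 54.2% of their summed CPM in the 4 libraries with low mt-Rnr2 and at most 1.93% in the other 20. Even in sum the pair had 51.0 to 78.8 CPM in the 4 and 250 to 1055 CPM in the 20. The other paralogs shared runs of 11 to 38 bases with their core genes, so a longer tag would differ between them. Rpl22l1 had 54.7 to 101.5 CPM over all libraries, and Rpl7l1 34.9 to 74.8 CPM. Neither had a log2 change past 0.10 in either direction with age or BAM15 over all libraries. Rpl39l, a paralog of Rpl39 known from testis, ran from 0.486 CPM in Aged BAM15 4 to 46.0 CPM in Aged CTRL 3.

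**Figure D5:**
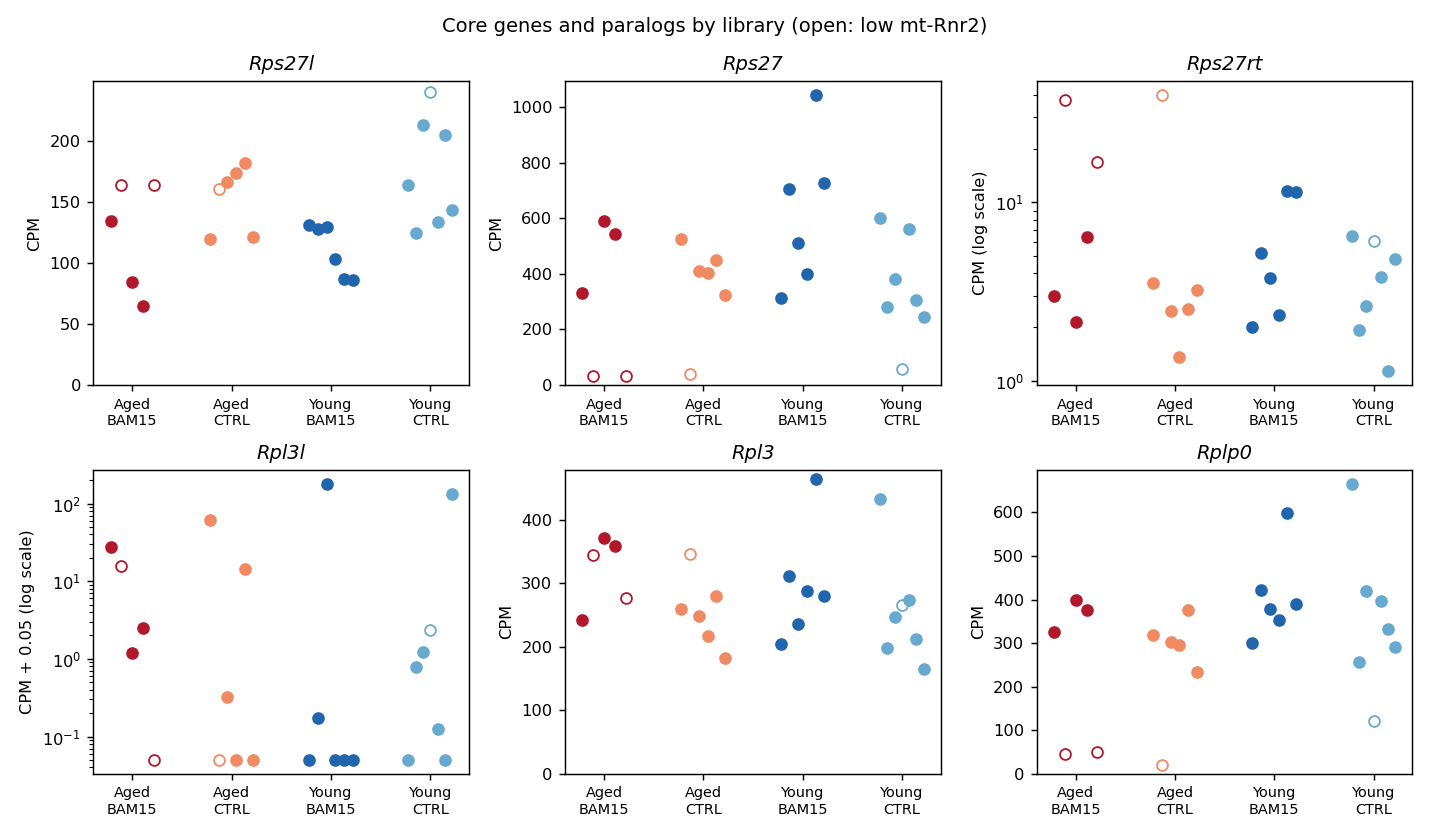
CPM of Rps27l, Rps27, Rps27rt, Rpl3l, Rpl3 and Rplp0 in each library by group, with low mt-Rnr2 libraries open and a log scale for Rps27rt and Rpl3l. Rps27 and Rplp0 are low and Rps27rt is high in most open points, Rpl3l stands out at 181 CPM in 1 Young BAM15 and 131.5 CPM in 1 Young CTRL library, and Rps27l is lowest in BAM15 libraries.

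None of the genes listed as building the ribosome or controlling its mRNAs was called either. By edgeR 0 genes were called in either direction in each comparison among 16 other mRNAs with a TOP tract, 24 translation initiation factors, 35 genes of ribosome biogenesis, 14 tested of RNA polymerase I and 24 of mTORC1 and TOP control. Other TOP mRNAs had median log2 changes of 0.09 in aged mice with BAM15, -0.02 with age and 0.07 in young mice with BAM15. In the same order initiation factors had 0.14, -0.16 and -0.16. Biogenesis genes had -0.06, -0.08 and 0.06, RNA polymerase I -0.09, -0.02 and 0.20, and the mTORC1 list -0.07, 0.04 and 0.05. Without the low mt-Rnr2 libraries 5 of these medians had the other sign: initiation factors in aged mice with BAM15 (-0.05), biogenesis genes in young mice with BAM15 (-0.03), RNA polymerase I in aged mice with BAM15 (0.04) and with age (0.05), and the mTORC1 list in young mice with BAM15 (-0.08).

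Genes named from these lists are those with the smallest p. In aged mice with BAM15 they included Sesn2, a stress-induced inhibitor of mTORC1 (-0.90 ± 0.27, adjusted p = 0.312, edgeR), and Dkc1, the pseudouridine synthase dyskerin (0.79 ± 0.26, adjusted p = 0.345, edgeR). The TOP mRNAs Naca and Tpt1 were at 0.76 ± 0.27 and 0.80 ± 0.31. In young mice with BAM15 the nucleolar factor Tcof1 was at 0.90 ± 0.27 (adjusted p = 0.203, edgeR) and the initiation factor subunit Eif2s1 at -0.60 ± 0.18 (adjusted p = 0.203, edgeR).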

How the data were processed

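Of 2 deposited tables, the raw counts (whole numbers per Ensembl gene) were used for all results; the authors' second table holds signal values, each count over the size factor of its library, and gave the gene names. Per the submitters' processing notes the build was GRCm38, with R 3.4.3 and DESeq2 1.18.1; aligner, counter and annotation: not given in the sources used here. Symbols came from the deposited table for 14606 genes. Counts were scaled by TMM factors, filtered with filterByExpr (15939 genes kept, 1602 removed) and tested with edgeR 4.0.16 (R 4.3.3, quasi-likelihood, robust, all 24 libraries, group term, residual df 20, common biological coefficient of variation 0.621). Calls are at a Benjamini-Hochberg adjusted p under 0.05 over all genes. SE is the absolute log2 change over the square root of F. CPM of members is scaled by TMM, and log2 CPM used a prior count of 2. CPM sums over the B cell and skeletal muscle lists, and the levels allowed by 0 counts, are scaled by library totals alone. On simulated data a log2 change of 1 was called in 15.3% (age), 10.3% (BAM15, aged) and 16.0% (BAM15, young) of genes, and a change of 2 in 66.0, 66.7 and 56.8%. Every library has its own ID in the labels and was taken as 1 mouse. Replicate numbers were not taken as pairs. Deviations correlated with a median r of -0.04 (-0.56 to 0.63) in 33 same-number pairs and 0.00 (-0.54 to 0.61) in 182 others. Such wide ranges cannot exclude a shared block. Alternatives were DESeq2 1.42.0, limma 3.58.1 voom with quality weights, other scalings and filters, covariates and left-out libraries. Named members were all called, the 5 most and 3 least abundant, the 4 with the largest log2 change each way per comparison, 13 fixed members and the paralogs; others are marked as picked after their values were seen. Members and lists were chosen with earlier results of these data known. Results for some genes are not reported here.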

Additional observations from a re-analysis of the deposited data

Results flagged for a closer look

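In each of the 4 groups the values of the 34 named members, the summed share of the members and their median level, 144 sets in all, were looked at for a library far from the rest of its group (a gap to the nearest library that is a large part of the whole range), and 24 were found, all of single members. Chance alone would give about 1 in 20 for unrelated sets that were not picked by their values. Many of the 34 members were named for large log2 changes in these same data, and members vary together within a library. The 24 can therefore not be set against that rate. Of the 24, 18 were in libraries with low mt-Rnr2. All values here are log2 CPM. In Aged CTRL 2 the highest of the group were Rps20 (11.2, others 9.11 to 9.75), Rps27rt (5.33, others 0.58 to 1.87), Rps3 (11.05, others 8.28 to 8.68) and Rpl13 (11.4, others at most 8.83). The lowest there were Rpl27 (6.42), Rps2 (4.83), Rps16 (2.46), Rps6 (-2.78, from 0 counts), Rps19bp1 (4.39), Rps27 (5.28), Rplp0 (4.33), Rps18 (4.28) and Rplp2 (7.16). In Young CTRL 4 Rps2 (6.42), Rps16 (4.29), Rps27 (5.89) and Rpl19 (2.56) were the lowest, and in Aged BAM15 2 Rpl36al was the highest (6.15, others 5.37 to 5.47).

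In the other libraries 6 were found. Rpl3l was far above its group in Young BAM15 3 (7.50) and Young CTRL 7 (7.04), the 2 libraries richest in skeletal muscle genes. Rpl5 (8.01) and Rplp2 (10.38) were highest in Young BAM15 5, the library with the highest B cell sum, and Rpl32 (9.97) in Young CTRL 1. Rpl22l1 was lowest in Aged CTRL 6 (5.78, others 6.20 to 6.43).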

How the results depend on the processing

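The count of members called was 0 in every comparison under each alternative scaling and filter, DESeq2, the compared groups alone, each covariate and each library left out. Limma-voom with quality weights was the exception, with 11 called in aged mice with BAM15 and 19 among the 4 groups. Its medians were 0.46 (aged, BAM15; 77 positive), -0.11 (age), 0.41 (young, BAM15) and 0.07 (interaction). Of members on the slope of the B cell list, 15 rose in all 24 libraries and 53 in 20; the cause was not tested. Under the other scalings the medians of the members stayed at 0.20 to 0.22 (aged, BAM15), -0.16 to -0.14 (age) and 0.28 to 0.30 (young, BAM15). They ranged with 1 library left out from 0.12 (without Aged BAM15 4) to 0.32 (without Aged CTRL 5) in aged mice with BAM15. With age they ranged from -0.30 (without Aged CTRL 5) to 0.00 (without Young CTRL 1), and in young mice with BAM15 from 0.09 (without Young BAM15 5) to 0.43 (without Young CTRL 1). The interaction median ranged from -0.17 to 0.11. The replicate numbers were not taken as pairs. With them as a replicate block the medians were 0.20 (aged, BAM15), -0.33 (age), 0.21 (young, BAM15) and 0.01 (interaction), with 0 members called. Of values of named members under alternatives, the sign changed in 65 of 816, 73 of 884 and 59 of 883 for the aged BAM15, age and young BAM15 comparisons. The shallowest library had 8.62 M counts, and members with few counts, such as Rpl3l, Rpl24, Rpl39l and Rps27rt, carry more counting error.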

Other observations

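A pseudogene of a member, picked after its values were seen, stood out in 1 library. Rpl10a-ps2, a processed pseudogene of Rpl10a on chromosome 13 from 8940336 to 8940977 (GRCm38, minus strand), had 9097 counts in Young CTRL 1 and 1 to 20 counts in each of the other 23 libraries. Rpl10a itself had 500 counts there and at most 419 elsewhere. The pseudogene lies 597 bases beyond the 3′ end of the predicted gene Gm9745, on the same strand. Idi2 and Idi1, genes of isoprenoid synthesis that are also on chromosome 13, were high in the same library. Idi2 had 22480 counts, against at most 102 elsewhere, and Idi1 had 1301 counts, against at most 26. Gtpbp4, looked up with them, was not high there, with 1197 counts against 431 to 1932 elsewhere. Young CTRL 7, the other library high in skin markers, had 6 counts of Rpl10a-ps2 and 0 of Idi2. Pseudogenes of ribosomal proteins in sum held 0.0944% of counts in Young CTRL 1 and 0.0067 to 0.025% in the others.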
